A study of Homo sapiens with 18 samples.

Results

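The genes of the nuclear pore complex and of the receptors that carry cargo through it were followed in RNA of cells labelled as A549, a line of human lung adenocarcinoma cells. Members were taken by name (the numbered nucleoporins, importins, exportins, transportins and karyopherins, with RANBP2, TPR, NXF1, NXT1, RAE1, POM121 and NDC1) where they reached a mean of at least 1 FPKM (fragment counts scaled by transcript length and library size) over the 9 input libraries. The name rule matched 55 of the 36576 genes in the expression table, and 49 of them passed the level. The lowest gene kept was XPO4 with a mean of 3.50 FPKM, followed by IPO13 with 4.41 FPKM. The 6 left out were KPNA5 (0.574 FPKM), KPNA7 (0.494 FPKM), the pseudogene NUP210P3 (0.311 FPKM), NUP210L, NUP35P1 and NUP35P2.

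The study exposed cells of that label for 24 h to 10 mg/L BPQD, read here as black phosphorus quantum dots, or to 100 mg/L TiO2, and kept untreated cells as the control. For every group there were 3 libraries of input RNA and 3 of RNA pulled down through N6-methyladenosine (m6A), a methyl mark inside mRNA. The series asks whether these nanomaterials alter RNA methylation in the line. The doses of the materials differed, so BPQD against TiO2 compares the exposures as given. The labels do not say whether replicates were separate cultures, so the spread behind each p-value is that between these libraries and may be technical.

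The nuclear pore complex is a ring of many copies of nucleoporins set in the nuclear envelope. Scaffold rings (the Y complex and the inner ring) hold membrane anchors, a barrier of nucleoporins rich in phenylalanine-glycine (FG) repeats, filaments on the cytoplasmic face and a basket on the nuclear face. Importins and exportins of the karyopherin family cross that barrier with cargo under the control of the GTPase Ran, whereas the receptor NXF1 with its partner NXT1 carries most mRNA.

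The 9 input libraries gave FPKM values without read counts, so depth is unknown and precision rests on 3 libraries per group. Log2 values of libraries of 1 group correlated at 0.980 to 0.983, and those of libraries of different groups at 0.966 to 0.975. The labelled cell type was checked on marker lists. Of 8 epithelial markers, 6 reached 1 FPKM (KRT18 averaged 489 FPKM) and CDH1 (0.337 FPKM) and KRT19 (0.239 FPKM) did not, with a summed level of 857 to 878 FPKM under BPQD, 956 to 1055 under TiO2 and 1162 to 1249 in control cells. Of 8 alveolar type II markers 1 reached 1 FPKM, and NKX2-1 and SFTPB reached at most 0.0970 and 0.0336 FPKM. Of 9 genes abundant in A549, 5 reached 1 FPKM (TXNRD1 averaged 117 FPKM), while AKR1B10 (0.600 FPKM), AKR1C1 (0.827 FPKM), AKR1C2 (0.0773 FPKM) and ALDH1A1 (0.0412 FPKM) did not on average, which goes against the label. Of 9 fibroblast markers 4 reached 1 FPKM (LUM averaged 19.7 FPKM), with sums of 14.0 to 24.9 FPKM under BPQD, 28.0 to 37.7 under TiO2 and 29.3 to 29.8 in control cells. Of 7 leukocyte markers CD68 alone reached 1 FPKM (sums of 11.97 to 13.1 FPKM under BPQD, 17.8 to 23.2 under TiO2 and 11.4 to 13.6 in control cells), and PTPRC reached at most 0.0346 FPKM. Of 6 endothelial markers CDH5 alone reached 1 FPKM, with sums of 1.24 to 1.39 FPKM under BPQD, 2.16 to 3.94 under TiO2 and 3.06 to 3.77 in control cells. CDH5 fell under BPQD (log2 fold change -0.91, limma adjusted p = 0.0017). The part of these markers in the results below was not tested.

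Promoters were read for 45 of the 49 members (57 start sites) from RefSeq on GRCh38.p14, as 250 bases before and 50 after each start. CCGGAAG, the core bound by ETS-family factors, was found on either strand in 26.3% of the 57 member promoters, in 18.3% of the promoters of all genes tested and in 10.3% of all 35116 promoters in the set. The windows shown are from members that rose with both materials or, for NXT1, from one that did not, with the motif (CCGGAAG, or CTTCCGG where it lies on the other strand) in capitals and each window written 5′ to 3′ on the strand of the gene.
NUP35, chr2:183124335-183124364, + strand: atagcgcaggtCCGGAAGttacgcaacccc
NUP54, chr4:76148489-76148518, - strand: gcccttggcgcCTTCCGGcctcttaggcta
NUP58, chr13:25301548-25301577, + strand: tgacggttacaCTTCCGGcgggctacgtgc
NUP107, chr12:68686948-68686977, + strand: tctgttttagggacagactgCTTCCGGgtc
TNPO3, chr7:129055112-129055141, - strand: ggtatcggtgctgtcgCTTCCGGtccgggt
XPOT, chr12:64404308-64404337, + strand: cgcctcgccgcCCGGAAGcgccggccgctc
NXT1, chr20:23350704-23350733, + strand: gcggagttagcCTTCCGGcccgcagtccca
The 15 members with this motif included 11 called higher under BPQD than in control cells and 1 called lower. Of the 30 without it, 20 were higher and 2 lower. Over all genes tested, 20.6% were called higher and 23.4% lower under BPQD. The share among tested genes with the motif was not computed.

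TTTGAA, the core of the cell cycle homology region found in promoters of genes that peak at mitosis, was found in 22.8% of the member promoters, 10.2% of those of all genes tested and 15.2% of all promoters. The windows shown are from members whose values are given below, with TTTGAA, or TTCAAA where it lies on the other strand, in capitals.
NUP153, chr6:17707146-17707175, - strand: aagtgtcttTTCAAAgtctaatttacagcc
NUP98, chr11:3797659-3797688, - strand: ttcagttcggtTTCAAAagacgcgttgccc
NDC1, chr1:53838309-53838338, - strand: gccttcctgccTTTGAActgcggtggcggg
IPO11, chr5:62412644-62412673, + strand: gcgccttttggTTCAAAgacaaagcccctc
IPO7, chr11:9384459-9384488, + strand: catttttcgttTTTGAAcagaaagacttgt
KPNA2, chr17:68035625-68035654, + strand: ccaacgtgtttTTCAAAtccaccaatgggc
Of the 11 members with it, 9 were called higher and none lower under BPQD. Of the 34 without it, 22 were higher and 3 lower, so most members were called higher with or without this motif. Beside these counts, 20.6% of all genes tested were called higher and 23.4% lower under BPQD. The GC box GGGCGG was found in 52.6% of member promoters against 68.2% of those tested, CCAAT in 42.1% against 35.3%, the E box CACGTG in 12.3% against 9.69% and the NRF1 palindrome in 5.26% against 2.10%. No motif searched holds another, and a match says only that these letters lie in the window.

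Most members were higher after BPQD than in untreated cells. Of 49, 33 were called higher (20.6% of the 12224 genes tested were called higher) and 3 lower (23.4% of those tested), 36 in all (44% of those tested), by limma with Benjamini-Hochberg adjusted p under 0.05 over all genes tested. The members' median log2 fold change was 0.26 (range -0.29 to 0.81), against -0.01 over all genes tested, and 41 of 49 values were above 0. The rises were modest in size, with IPO11 (1.49-fold), NUP35 (1.42-fold) and NUP155 (1.40-fold) the largest ratios of mean FPKM among called members. With values rescaled to TPM, 58.3% of the called genes were higher against 46.9% as tested on FPKM, and the members then counted 36 higher and 2 lower. In bulk RNA, a change in the cells' makeup and a change in RNA per cell cannot be told apart.

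After TiO2, 19 members were called higher (17.3% of genes tested) and 5 lower (20.5%) than in control cells, 24 in all (37.7%), with a median log2 fold change of 0.08 against -0.02 over all genes tested. Set directly against TiO2, BPQD gave 27 members higher (19% of genes tested) and 1 lower (18.6%), 28 in all (37.6%), with a median of 0.14 against 0.00, and 40 of 49 values above 0. In that comparison the share of called genes that were higher was 50.5%, and it was 60.5% after rescaling to TPM (members 29 higher and 1 lower) and 61.5% with no filter on low values (25 higher and 1 lower). Summed over members, FPKM was 1290.4 ± 8.45 under BPQD, 1157 ± 15.0 under TiO2 and 1099 ± 4.30 in control cells (SD, n = 3). That sum was 0.604% ± 0.00260 of all FPKM under BPQD, 0.527% ± 0.00696 under TiO2 and 0.495% ± 0.00192 in control cells, and the 3 groups did not overlap on it. The comparisons with control cells share the same 3 control libraries, so their values are set side by side and differences between materials are read from BPQD against TiO2.

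**Figure D1:**
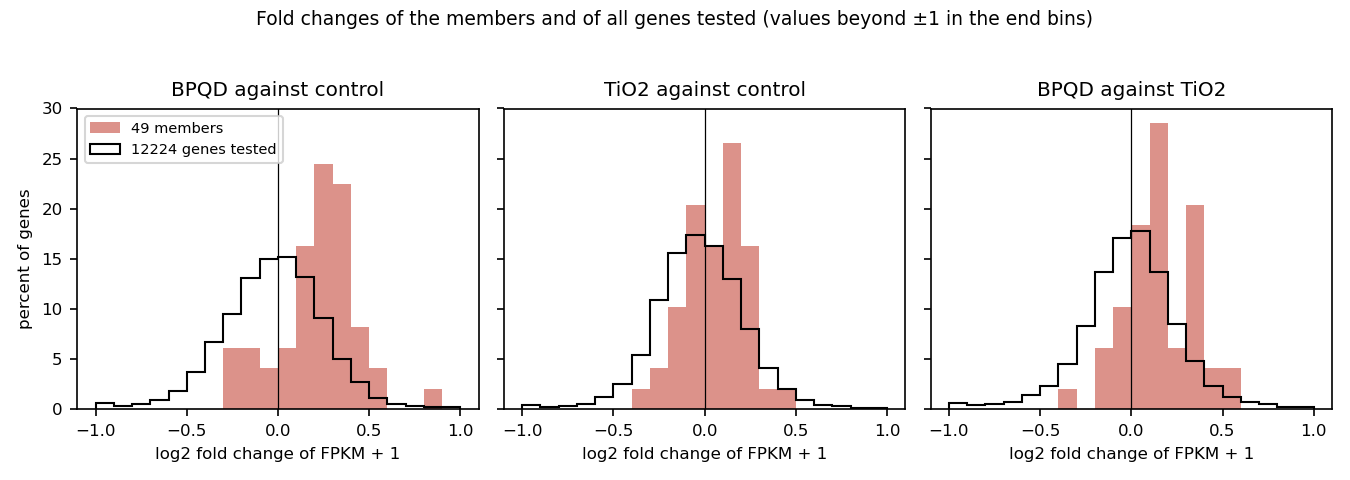
Percent of genes (y axis) by log2 fold change of FPKM + 1 (x axis, bins of 0.1) for the 49 members (filled) and the 12224 genes tested (line), in 3 comparisons. The members lie to the right of the genes tested under BPQD against control, with a median of 0.26 against -0.01, and less so under TiO2 against control, with 0.08 against -0.02.

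Mean levels over the 9 libraries ran from 3.50 FPKM for XPO4 to 93.5 FPKM for KPNA2, with KPNB1 (85.7 FPKM), NUP210 (70.6 FPKM), IPO7 (59.4 FPKM) and XPO1 (39.8 FPKM) next below it. Replicates lay close for most: in 39 of 49 members the highest library was under 1.2 times the lowest in every group. It was over 1.5 times in 4 members, NUP50, IPO4, XPO4 and NUP62, whose values are given last among the expression results.

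**Figure D2:**
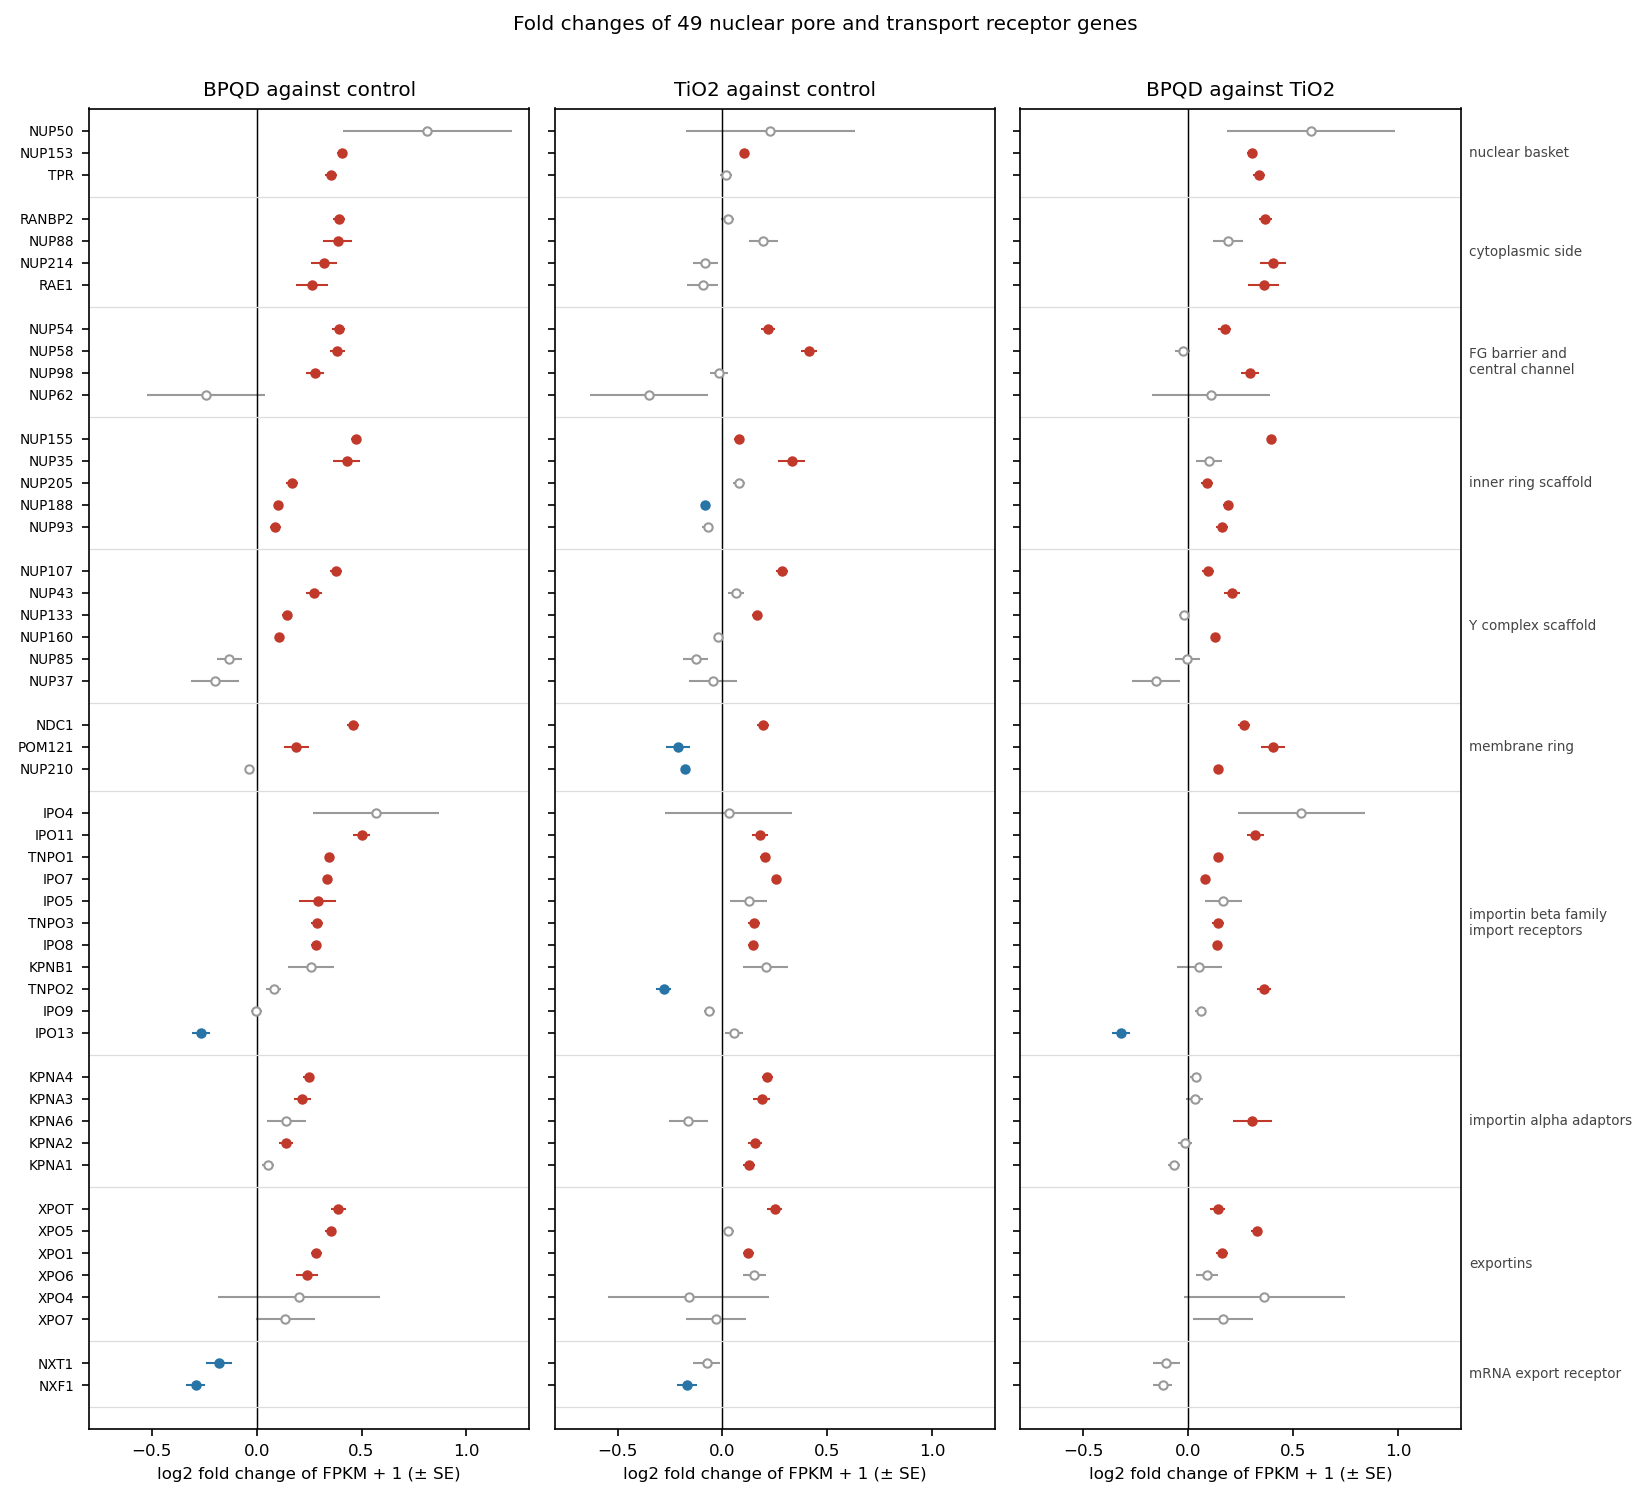
log2 fold change of FPKM + 1 (x axis) with its SE for each of the 49 members (rows, grouped by role), in 3 comparisons. Filled red points were called higher and filled blue points lower at limma adjusted p under 0.05, and open grey points were not called. Red points fill most roles under BPQD against control, where 33 members were higher, and the mRNA export receptor is the role with both members lower.

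The nuclear basket had 2 of its 3 members called higher under BPQD, TPR and NUP153. Beside this and the counts by role below, 20.6% of all genes tested were called higher under BPQD and 17.3% under TiO2. Under BPQD against TiO2 it was 19%. TPR (chr1:186311652-186375693, minus strand), the coiled-coil protein that forms most of the basket, had 35.6, 34.6 and 35.7 FPKM in the BPQD libraries, 28.04, 28.4 and 26.8 FPKM in the TiO2 libraries and 27.6, 27.7 and 26.9 FPKM in the control libraries. The BPQD libraries all lay above the others, and TiO2 and control overlapped. TPR rose by 0.35 ± 0.03 (log2 fold change ± SE, limma adjusted p = 6.31e-05) under BPQD, was 0.02 ± 0.03 under TiO2 (adjusted p = 0.681), and differed between the materials by 0.34 ± 0.03 (adjusted p = 9.23e-05). NUP153 (chr6:17615035-17706834, minus strand), the FG nucleoporin that anchors the basket, had 30.7, 31.2 and 30.3 FPKM under BPQD, 24.9, 24.5 and 24.8 FPKM under TiO2 and 23.3, 22.8 and 22.7 FPKM in control cells. No 2 groups overlapped. It rose by 0.41 ± 0.02 under BPQD (limma adjusted p = 1.32e-05) and by 0.10 ± 0.02 under TiO2 (adjusted p = 0.00797), and was higher by 0.30 ± 0.02 under BPQD than under TiO2 (adjusted p = 4.7e-05). The third basket member, NUP50, which helps release cargo from importin alpha, was not called in any comparison.

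All 4 members of the cytoplasmic side were higher under BPQD, and none was called under TiO2. RANBP2 (chr2:108719482-108785809, plus strand), the giant filament protein that binds Ran and SUMO-modified RanGAP, had 29.3, 28.5 and 28.1 FPKM under BPQD, 21.3, 22.9 and 21.8 FPKM under TiO2 and 21.8, 21.6 and 21.3 FPKM in control cells. The BPQD libraries stood above all others, while TiO2 and control overlapped. RANBP2 rose by 0.39 ± 0.03 under BPQD (limma adjusted p = 5.84e-05), a ratio of 1.33 in mean FPKM, and was higher by 0.37 ± 0.03 than under TiO2 (adjusted p = 9.24e-05). Its value is uncertain to the extent that the authors' counting split reads with the near-identical RGPD genes. NUP214 (chr9:131125586-131234663, plus strand), an FG nucleoporin that binds XPO1, had 10.03, 9.29 and 9.15 FPKM under BPQD, 7.07, 7.01 and 6.70 FPKM under TiO2 and 7.69, 6.67 and 7.85 FPKM in control cells. Only the TiO2 and control libraries overlapped. NUP214 rose by 0.32 ± 0.06 under BPQD (adjusted p = 0.00376) and was 0.40 ± 0.06 higher than under TiO2 (adjusted p = 0.00154). NUP88, its partner, rose by 0.39 ± 0.07 under BPQD (adjusted p = 0.00329) and was 0.20 ± 0.07 under TiO2 (adjusted p = 0.0632). RAE1, which works with NUP98 in mRNA export, rose by 0.26 ± 0.08 under BPQD (adjusted p = 0.0237). That call was lost without control library 2 (adjusted p = 0.0721) and without control library 3 (adjusted p = 0.0758).

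Of the 4 nucleoporins of the FG barrier and central channel, 3 were higher under BPQD and 2 under TiO2. NUP98 (chr11:3671083-3797792, minus strand), whose GLFG repeats are a main part of the barrier, had 33.7, 33.3 and 32.7 FPKM under BPQD, 26.4, 28.7 and 25.6 FPKM under TiO2 and 26.8, 28.1 and 26.8 FPKM in control cells. The BPQD libraries lay above all others, and TiO2 and control overlapped. NUP98 rose by 0.28 ± 0.04 under BPQD (limma adjusted p = 0.00148), was -0.02 ± 0.04 under TiO2 (adjusted p = 0.783) and differed between materials by 0.30 ± 0.04 (adjusted p = 0.00134). NUP58 (chr13:25301556-25349800, plus strand), of the central channel, had 7.18, 6.64 and 7.22 FPKM under BPQD, 7.09, 7.07 and 7.32 FPKM under TiO2 and 5.23, 5.17 and 4.99 FPKM in control cells. The materials overlapped each other and both lay above control. Its rises were 0.38 ± 0.04 under BPQD (adjusted p = 0.000156) and 0.41 ± 0.04 under TiO2 (adjusted p = 0.000153), the largest of any called member under TiO2, and the difference between materials was -0.03 ± 0.04 (adjusted p = 0.607). NUP54, a channel partner of NUP58, rose by 0.39 ± 0.03 under BPQD (adjusted p = 7.15e-05) and by 0.22 ± 0.03 under TiO2 (adjusted p = 0.00143). NUP62, the other channel protein, was not called.

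All 5 inner ring scaffold genes were higher under BPQD, 2 were higher and 1 lower under TiO2, and 4 were higher under BPQD than under TiO2. NUP155 (chr5:37288137-37371106, minus strand), which ties the inner ring to the membrane, had 46.3, 45.2 and 46.5 FPKM under BPQD, 34.8, 35.1 and 34.3 FPKM under TiO2 and 32.9, 32.5 and 33.2 FPKM in control cells. The BPQD libraries lay well above the rest, and TiO2 lay just above control. NUP155 rose by 0.47 ± 0.02 under BPQD (limma adjusted p = 6.18e-06) and by 0.08 ± 0.02 under TiO2 (adjusted p = 0.0224), and the materials differed by 0.40 ± 0.02 (adjusted p = 1.2e-05). The TiO2 call was lost in 4 of the fits that left out a library: TiO2 library 1 or 2 (adjusted p = 0.0590 and 0.0668) or control library 1 or 2 (0.0538 and 0.0697). NUP35 (chr2:183117513-183161680, plus strand), a membrane-binding linker of the ring, had 6.32, 7.16 and 6.003 FPKM under BPQD, 5.99, 6.21 and 5.75 FPKM under TiO2 and 4.54, 4.85 and 4.29 FPKM in control cells. The materials overlapped and both lay above control, with rises of 0.43 ± 0.06 under BPQD (adjusted p = 0.00125) and 0.33 ± 0.06 under TiO2 (adjusted p = 0.00547).

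The other inner ring genes moved less under BPQD. NUP188 (chr9:128947699-129007096, plus strand), one of a pair of large scaffold proteins with NUP205, had 39.6, 39.4 and 39.97 FPKM under BPQD, 35.2, 34.2 and 34.7 FPKM under TiO2 and 36.9, 36.4 and 37.2 FPKM in control cells. No groups overlapped: it rose by 0.10 ± 0.02 under BPQD (limma adjusted p = 0.00417) and fell under TiO2 (log2 fold change -0.08 ± 0.02, adjusted p = 0.0136). NUP205 rose by 0.17 ± 0.03 under BPQD (adjusted p = 0.00183). It was higher by 0.09 ± 0.03 under BPQD than under TiO2 (adjusted p = 0.0341). That call was lost in 10 of 18 alternative fits, 6 of which left out a library (adjusted p = 0.0502 to 0.09995 over all settings that lost it). NUP93 (chr16:56730118-56850286, plus strand), the linker that recruits NUP62 to the ring, had 11.1, 11.2 and 10.8 FPKM under BPQD, 9.57, 10.04 and 9.70 FPKM under TiO2 and 10.2, 10.4 and 10.3 FPKM in control cells. The 3 groups did not overlap. NUP93 rose by 0.09 ± 0.03 under BPQD (adjusted p = 0.0337), a call lost on leaving out BPQD library 1 (adjusted p = 0.0873) or 2 (0.0983) or any control library (0.0540 to 0.0923). It was higher by 0.16 ± 0.03 under BPQD than under TiO2 (adjusted p = 0.00318).

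In the Y complex, 4 of 6 scaffold genes were higher under BPQD, 2 under TiO2 and none was lower in either. NUP107 (chr12:68686951-68745809, plus strand), a stem protein of the Y, had 16.5, 17.03 and 16.9 FPKM under BPQD, 15.3, 15.6 and 16.2 FPKM under TiO2 and 12.8, 12.8 and 12.5 FPKM in control cells. Both materials lay above control without overlap. NUP107 rose by 0.38 ± 0.03 under BPQD (limma adjusted p = 4.23e-05) and by 0.28 ± 0.03 under TiO2 (adjusted p = 0.000203), and the difference between materials was 0.09 ± 0.03 (adjusted p = 0.03), a call lost without BPQD library 2 or 3 or TiO2 library 1 or 2 (adjusted p = 0.0597 to 0.0919 over all settings that lost it). NUP133, its partner in the stem, rose by 0.14 under BPQD and 0.17 under TiO2. NUP160 rose by 0.11 and NUP43 by 0.27 under BPQD, and their values under TiO2 (-0.02 and 0.06) were not called. NUP37 (-0.20 under BPQD and -0.05 under TiO2) and NUP85 (-0.13 and -0.13) were called in no comparison.

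The 3 membrane nucleoporins differed between the materials, and all were higher under BPQD than under TiO2. NDC1 (chr1:53765478-53838463, minus strand), a transmembrane protein needed for pore insertion, had 35.4, 35.7 and 35.8 FPKM under BPQD, 28.7, 30.8 and 28.9 FPKM under TiO2 and 25.3, 25.8 and 25.9 FPKM in control cells. No 2 groups overlapped. It rose by 0.46 ± 0.03 under BPQD (limma adjusted p = 2.65e-05) and by 0.19 ± 0.03 under TiO2 (adjusted p = 0.00181). NUP210 (chr3:13316235-13420322, minus strand), the large lumenal nucleoporin and the most abundant pore gene here by FPKM, had 70.9, 73.3 and 72.8 FPKM under BPQD, 65.9, 64.7 and 65.6 FPKM under TiO2 and 73.2, 74.8 and 74.5 FPKM in control cells. The TiO2 libraries lay below all others, and NUP210 fell under TiO2 (log2 fold change -0.18 ± 0.02, adjusted p = 0.000383), with -0.04 ± 0.02 under BPQD (adjusted p = 0.181). POM121 (chr7:72879365-72951440, plus strand), a membrane anchor with FG repeats, had 9.55, 9.33 and 8.80 FPKM under BPQD, 6.57, 6.24 and 7.44 FPKM under TiO2 and 7.96, 8.06 and 7.86 FPKM in control cells. The groups did not overlap, and POM121 was 0.40 ± 0.06 higher under BPQD than under TiO2 (adjusted p = 0.00125).

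Against control cells, POM121 rose by 0.19 ± 0.06 under BPQD (limma adjusted p = 0.0303) and fell under TiO2 (log2 fold change -0.21 ± 0.06, adjusted p = 0.0227). Both calls were lost in 5 of the fits that left out a library. Leaving out BPQD library 1 or 2 or any control library gave adjusted p of 0.0625 to 0.0918 for BPQD, and leaving out TiO2 library 1 or 2 or any control library gave 0.0505 to 0.0673 for TiO2. POM121 has a near-identical copy, POM121C, so reads could be split between them. POM121C had a log2 fold change of 0.08 ± 0.03 under BPQD (adjusted p = 0.0897), fell under TiO2 with -0.23 ± 0.03 (adjusted p = 0.00164) and was 0.31 ± 0.03 higher under BPQD than under TiO2 (adjusted p = 0.000350).

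**Figure D3:**
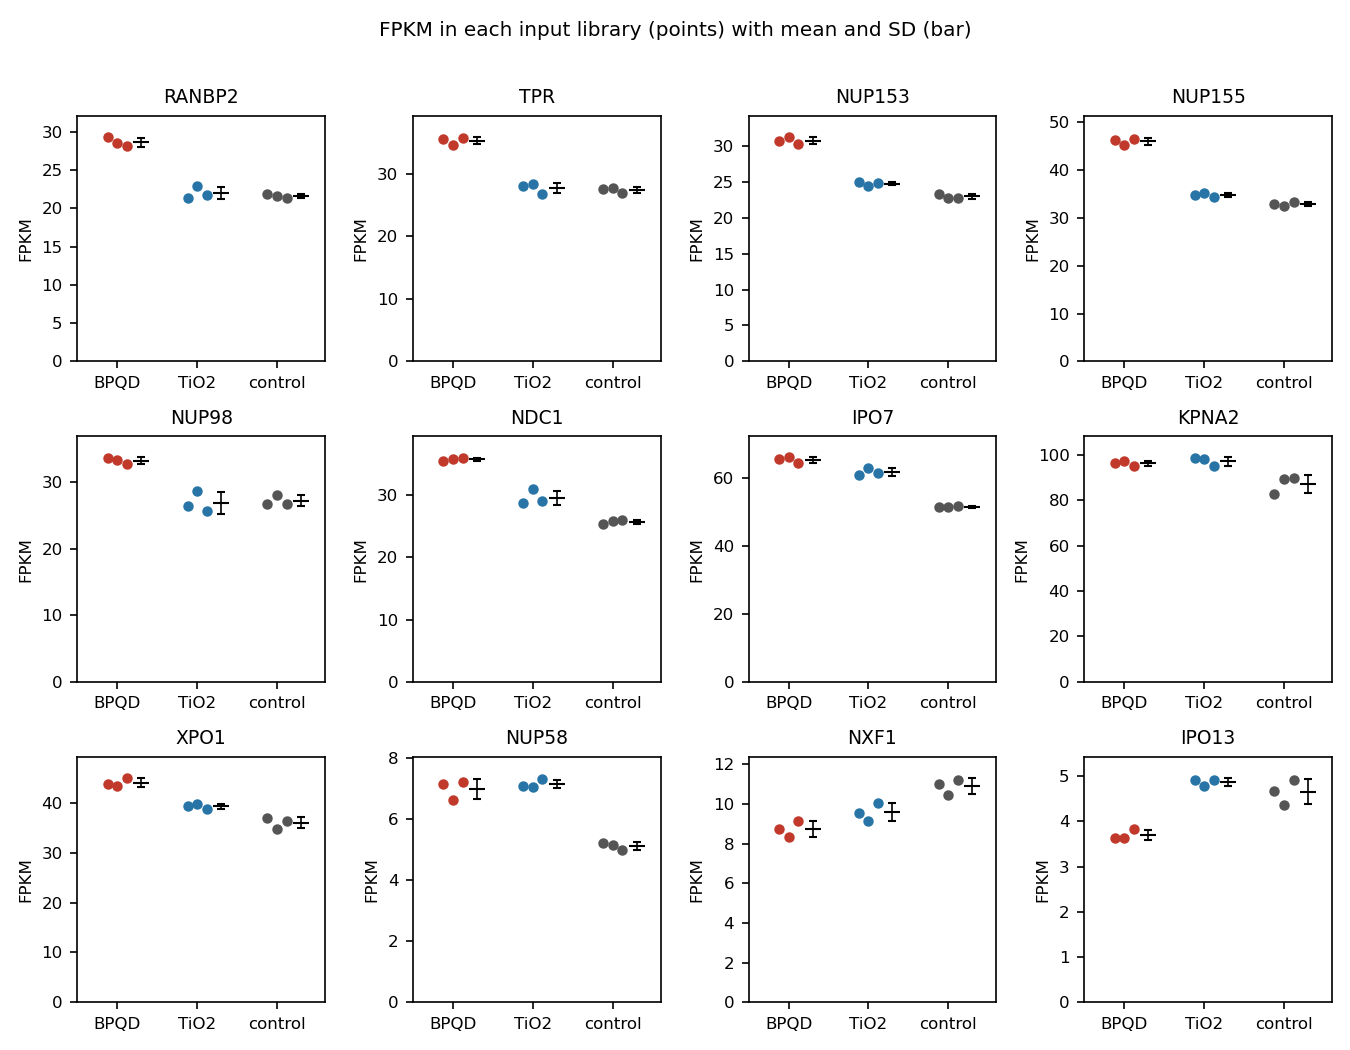
FPKM (y axis, starting at 0) in each input library (points) of the BPQD, TiO2 and control groups for 12 members, with the mean and SD of 3 libraries (bar). RANBP2, TPR and NUP155 stand higher in BPQD libraries than in both other groups, NUP58 and IPO7 stand above control in both materials, and NXF1 stands below control in both.

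Among the 11 import receptors of the importin beta family, 6 were higher and 1 lower under BPQD, 5 higher and 1 lower under TiO2, and 6 higher and 1 lower under BPQD than under TiO2. IPO11 (chr5:62403972-62628582, plus strand), which imports ubiquitin-conjugating enzymes, had 8.83, 8.87 and 8.21 FPKM under BPQD, 6.42, 6.94 and 6.80 FPKM under TiO2 and 5.80, 5.78 and 5.85 FPKM in control cells. No groups overlapped, and the rise of 0.50 ± 0.04 under BPQD (limma adjusted p = 5.82e-05) was the largest of any called member, beside 0.18 ± 0.04 under TiO2 (adjusted p = 0.00852). IPO11 overlaps KIF2A, a gene that is itself expressed. IPO7 (chr11:9384652-9448127, plus strand), which imports ribosomal proteins and histone H1, had 65.4, 65.96 and 64.4 FPKM under BPQD, 60.7, 62.9 and 61.3 FPKM under TiO2 and 51.3, 51.3 and 51.7 FPKM in control cells. Both materials lay above control, with rises of 0.34 ± 0.02 under BPQD (adjusted p = 1.91e-05) and 0.26 ± 0.02 under TiO2 (adjusted p = 8.23e-05). Its difference of 0.08 ± 0.02 between the materials (adjusted p = 0.0158) was lost without BPQD library 2 or TiO2 library 1 (adjusted p = 0.0514 to 0.0532).

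KPNB1 (chr17:47649476-47685505, plus strand), importin beta itself and the receptor of the classical import route, had 86.97, 101 and 87.5 FPKM under BPQD, 90.4, 91.2 and 83.3 FPKM under TiO2 and 70.04, 69.996 and 90.8 FPKM in control cells. Control library 3 stood near the exposed libraries, and the log2 fold changes of 0.26 ± 0.11 under BPQD (limma adjusted p = 0.0888) and 0.21 ± 0.11 under TiO2 (adjusted p = 0.177) were not called. Without control library 3 both were called, with 0.38 (adjusted p = 0.00709) under BPQD and 0.33 (adjusted p = 0.0155) under TiO2, and after rescaling to TPM the BPQD value was called with 0.32 (adjusted p = 0.0471). The transportin TNPO1, which imports RNA-binding proteins such as hnRNP A1, rose by 0.35 under BPQD and 0.20 under TiO2. TNPO3, the importer of SR splicing factors, rose by 0.29 and 0.15, and IPO8 by 0.28 and 0.14. IPO5 rose by 0.29 ± 0.09 under BPQD (adjusted p = 0.0305), a call lost without BPQD library 2 (adjusted p = 0.0843), control library 2 (0.0931) or control library 3 (0.0942). IPO9, an importer of histones, had -0.00 under BPQD and -0.06 under TiO2 and was not called.

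A pair of receptors of the same family went the other way in 1 material each. IPO13 (chr1:43946950-43968022, plus strand), which both imports and exports cargo, had 3.63, 3.63 and 3.84 FPKM under BPQD, 4.92, 4.78 and 4.92 FPKM under TiO2 and 4.67, 4.37 and 4.92 FPKM in control cells. The BPQD libraries lay below all others. IPO13 fell under BPQD (log2 fold change -0.27 ± 0.04, limma adjusted p = 0.00171), had 0.06 ± 0.04 under TiO2 (adjusted p = 0.348), and was the 1 member lower under BPQD than under TiO2 (-0.32 ± 0.04, adjusted p = 0.000843). TNPO2 (chr19:12699194-12724011, minus strand), the close relative of TNPO1, had 12.9, 13.1 and 13.8 FPKM under BPQD, 9.98, 10.1 and 10.2 FPKM under TiO2 and 12.3, 12.998 and 12.2 FPKM in control cells. The TiO2 libraries lay below all others, and TNPO2 fell under TiO2 (-0.28 ± 0.04, adjusted p = 0.000714), with 0.08 ± 0.04 under BPQD (adjusted p = 0.1). The BPQD value was called higher with median centring (0.10, adjusted p = 0.0358), quantile normalization (0.10, adjusted p = 0.0371) and rescaling to TPM (0.14, adjusted p = 0.0172). Between the materials TNPO2 differed by 0.36 ± 0.04 (adjusted p = 0.000202).

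The importin alpha adaptors, which link cargo with a classical signal to KPNB1, had 3 of 5 members called higher under BPQD and 4 of 5 under TiO2. Only KPNA6 was called between the materials. KPNA2 (chr17:68035708-68046854, plus strand), an adaptor that is abundant in dividing cells, had 96.3, 97.3 and 94.9 FPKM under BPQD, 98.6, 97.9 and 94.9 FPKM under TiO2 and 82.7, 89.2 and 89.5 FPKM in control cells. The materials overlapped and lay above control, with rises of 0.14 ± 0.03 under BPQD (limma adjusted p = 0.0106) and 0.16 ± 0.03 under TiO2 (adjusted p = 0.00837), a difference between them of -0.01 ± 0.03 (adjusted p = 0.768). KPNA3 rose by 0.22 under BPQD and 0.19 under TiO2, and its relative KPNA4 by 0.25 and 0.21. KPNA1 rose by 0.13 ± 0.03 under TiO2 (adjusted p = 0.011) and had 0.06 ± 0.03 under BPQD (adjusted p = 0.155). KPNA6 was 0.30 ± 0.09 higher under BPQD than under TiO2 (adjusted p = 0.0344), a call lost without any 1 BPQD library or any 1 control library (adjusted p up to 0.0855 over all settings that lost it). Its TiO2 library 1 was low, with the highest TiO2 library 1.33 times it, against 1.03 under BPQD and 1.04 in control cells. Against control KPNA6 had 0.14 ± 0.09 under BPQD (adjusted p = 0.253) and -0.16 ± 0.09 under TiO2 (adjusted p = 0.21).

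Of the 6 exportins, 4 were higher under BPQD, 2 under TiO2 and 3 under BPQD than under TiO2. XPO1 (chr2:61477849-61538626, minus strand), the receptor for proteins with a leucine-rich export signal, had 43.7, 43.4 and 44.99 FPKM under BPQD, 39.4, 39.7 and 38.8 FPKM under TiO2 and 36.9, 34.8 and 36.3 FPKM in control cells. The 3 groups formed separate steps without overlap. XPO1 rose by 0.28 ± 0.03 under BPQD (limma adjusted p = 0.000152) and by 0.12 ± 0.03 under TiO2 (adjusted p = 0.0096), and the materials differed by 0.16 ± 0.03 (adjusted p = 0.00282). XPOT, the tRNA exporter, rose by 0.39 and 0.25 in the same comparisons. XPO5, the exporter of microRNA precursors, rose by 0.35 ± 0.03 under BPQD (adjusted p = 4.22e-05), with 0.03 ± 0.03 under TiO2 (adjusted p = 0.443) and a difference between materials of 0.33 ± 0.03 (adjusted p = 7.23e-05). XPO6, the exporter of actin, rose by 0.24 ± 0.05 under BPQD (adjusted p = 0.00826), and XPO4 and XPO7 were not called.

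The mRNA export receptor was lower where most pore genes were higher. NXF1 (chr11:62792123-62806302, minus strand), the receptor that carries mRNA through the pore, had 8.73, 8.31 and 9.14 FPKM under BPQD, 9.56, 9.16 and 10.04 FPKM under TiO2 and 11.02, 10.5 and 11.2 FPKM in control cells. Neither material overlapped control, and BPQD lay below TiO2. NXF1 fell under BPQD (log2 fold change -0.29 ± 0.05, limma adjusted p = 0.0017) and under TiO2 (-0.17 ± 0.05, adjusted p = 0.0237), and the materials differed by -0.12 ± 0.05 (adjusted p = 0.0739). The TiO2 call was lost without TiO2 library 1 (adjusted p = 0.0602), TiO2 library 2 (0.0752), control library 1 (0.0662) or control library 3 (0.0753), while the BPQD call held in all 18 alternative fits. NXT1 (chr20:23350791-23354771, plus strand), its partner, had 10.9, 10.7 and 11.7 FPKM under BPQD, 11.9, 11.999 and 12.2 FPKM under TiO2 and 11.4, 13.4 and 13.5 FPKM in control cells. The BPQD and control libraries overlapped, and the call of lower under BPQD (-0.18 ± 0.06, adjusted p = 0.0499) was lost in 14 of 18 alternative fits. Those included the fits without BPQD library 1 or 2 (0.121 and 0.136), without control library 2 or 3 (0.144 and 0.145) and without any 1 of the TiO2 libraries (0.0701 to 0.0711).

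The 4 members with wide spread were not called in any comparison with all 9 libraries. NUP50 (chr22:45163925-45188017, plus strand) had 14.6, 14.6 and 12.6 FPKM under BPQD, 4.49, 10.9 and 13.98 FPKM under TiO2 and 10.3, 9.03 and 4.39 FPKM in control cells, a log2 fold change of 0.81 ± 0.40 under BPQD (limma adjusted p = 0.141). TiO2 library 1 and control library 3 lay far below the rest of their groups. IPO4 had 12.9, 11.5 and 10.4 FPKM under BPQD, 7.36, 7.80 and 7.75 FPKM under TiO2 and 3.90, 11.4 and 8.92 FPKM in control cells (0.57 ± 0.30 under BPQD, adjusted p = 0.167). Without control library 2 IPO4 was called higher under BPQD than in control cells, with 0.85 (adjusted p = 0.0458). Its BPQD and TiO2 libraries did not overlap. BPQD was called higher than TiO2, with 0.54, without control library 1 and in the fit of only the 6 libraries compared (adjusted p = 0.00487 to 0.00732). XPO4 had 3.01, 2.84 and 6.48 FPKM under BPQD, 2.05, 2.06 and 4.79 FPKM under TiO2 and 4.25, 4.17 and 1.79 FPKM in control cells. Library 3 was the high one in both materials and the low one in control. NUP62 had 10.6, 11.4 and 17.9 FPKM under BPQD, 8.87, 14.8 and 12.9 FPKM under TiO2 and 18.2, 18.9 and 10.8 FPKM in control cells, and overlaps the expressed gene ATF5.

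Genes of the same pathway outside the name rule were counted on lists that were drawn up with earlier results known. Beside these counts, 20.6% of all genes tested were called higher and 23.4% lower under BPQD, and 17.3% and 20.5% under TiO2. The counts of higher genes under BPQD lie near or below that share in all these lists but the other karyopherins. Of 9 other pore proteins, 2 were higher and none lower under BPQD, and 1 was higher and 1 lower under TiO2. They included AHCTF1, which seeds pore assembly on chromatin (0.36 ± 0.05 under BPQD, limma adjusted p = 0.000563, and 0.14 ± 0.05 under TiO2, adjusted p = 0.0435). Of 9 other karyopherins and adaptors, 4 were higher under each material and none lower. CSE1L, the exportin that returns importin alpha to the cytoplasm, had 156 ± 1.26 FPKM under BPQD, 147 ± 0.961 under TiO2 and 116 ± 0.995 in control cells (SD, n = 3). It stood above every member in mean FPKM and rose by 0.43 ± 0.02 under BPQD (adjusted p = 2.63e-06) and 0.34 ± 0.02 under TiO2 (adjusted p = 8.68e-06).

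Of 9 genes of the Ran cycle, 2 were higher and 1 lower under each material. RANGAP1, the GTPase activator docked on RANBP2, had 35.1 ± 0.958 FPKM under BPQD, 34.9 ± 1.09 under TiO2 and 42.3 ± 0.592 in control cells. It fell in both, with -0.26 ± 0.03 under BPQD (limma adjusted p = 0.000378) and -0.27 ± 0.03 under TiO2 (adjusted p = 0.000415). RCC1, the exchange factor for Ran, rose by 0.41 ± 0.14 under BPQD (adjusted p = 0.0443), and RAN itself was not called. Of 22 mRNA export adaptors, 5 were higher and 2 lower under BPQD and 3 higher and 4 lower under TiO2. PCID2, of the TREX-2 complex that sits at the basket, rose by 0.40 ± 0.03 under BPQD (adjusted p = 5.43e-05), and THOC6, of the THO complex, fell with -0.24 ± 0.06 under BPQD (adjusted p = 0.0155) and -0.22 ± 0.06 under TiO2 (adjusted p = 0.0244). Of 14 lamina and envelope genes, 2 were higher and 4 lower under BPQD and 1 higher and 4 lower under TiO2, with LMNA at -0.17 ± 0.03 under BPQD (adjusted p = 0.00219) and -0.23 ± 0.03 under TiO2 (adjusted p = 0.000586).

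Members were long and well-expressed genes. Among other genes, the share called higher under BPQD was 11.6% in the shortest 25% of genes and 27.7% in the longest 25%, and 13.3% in the lowest 25% by mean FPKM and 27.9% in the highest 25%. Their median genomic length was 63.6 kb, against 26.7 kb over the 89.6% of tested genes with a RefSeq length. In the longest 25%, 19 of 24 members were called higher under BPQD, and in the next 25% 12 of 16, against 24.6% of the other genes there. In the shorter bins it was 2 of 7 members, against 18.6% of the others, and 0 of 2 in the shortest. In the highest 25% by FPKM, 25 of 33 members were higher, and in the next 25% 8 of 14, against 23.4% of the others. In the bin below it was 0 of 2, against 17.4%, and the lowest bin held no member. The part of other shared properties was not tested. Of the 49 members, 13 overlap an annotated gene that reached 1 FPKM, NUP98, NUP88, NUP153, NUP188 and XPO5 among them, and whether the counting used strand is not given in the sources used here, so their reads may be mixed with those of the neighbour.

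m6A on these transcripts was taken from peak lists in the authors' deposited tables, which set each material against control. For BPQD the authors' deposited table listed 36 peaks in 22 members, and 19 were higher and 9 lower at the authors' p under 0.05 (37.7% and 27.1% of all 14903 peaks). For TiO2 the authors' deposited table listed 28 peaks in 20 members, and 15 were higher and 5 lower (40.3% and 23.8% of all 12888 peaks). The median log2 fold change of the member peaks in the authors' deposited tables was 0.18 for BPQD and 0.185 for TiO2, against 0.159 and 0.153 over all peaks. Of the member peaks in the authors' deposited tables, 20 under BPQD (55.6%) and 15 under TiO2 (53.6%) lay in the 3′ UTR. Over all peaks in those tables the share was 45.4% for BPQD and 46.9% for TiO2. At the authors' p, 12 of the 3′ UTR peaks in the authors' deposited table were higher and 6 lower under BPQD, and 9 were higher and 5 lower under TiO2. The shares higher and lower among all 3′ UTR peaks were not computed. Under BPQD 2 of the peaks, and under TiO2 4, lie by the authors' deposited annotation on an exon of another gene within the member. No peak was listed for 27 members under BPQD and for 29 under TiO2, which says only that the authors' deposited tables hold none.

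The smallest p under TiO2, and one of the smallest under BPQD, belonged to RANBP2. In the authors' deposited tables a peak at chr2:108764593-108771745, on exon 20 of 29, had a log2 fold change of 0.336 under TiO2 (p = 2.51e-67) and 0.252 under BPQD (p = 3.98e-41). A neighbouring peak on the same exon, chr2:108763363-108764443, had 0.192 under BPQD (p = 5.89e-08), and its counterpart under TiO2, chr2:108763393-108764323, had -0.0626 (p = 0.0631) in the authors' deposited tables. Beside these, RANBP2 RNA was 0.39 under BPQD and 0.03 under TiO2 on the log2 scale, with the BPQD value called. NUP153 had a peak on exon 16 of 23 with 0.172 under BPQD (chr6:17628779-17639984, p = 4.90e-10) and 0.24 under TiO2 (chr6:17628809-17639984, p = 1e-16) in the authors' deposited tables. A further NUP153 peak in the 3′ UTR, chr6:17615665-17616550, had 0.307 under BPQD (p = 3.72e-08) in the authors' deposited table.

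Under BPQD the member peak with the smallest p was in the 3′ UTR of KPNA1, the adaptor whose RNA was not called under BPQD. Peaks of some other members had larger fold changes at p under 0.05 in the authors' deposited table. The peak at chr3:122426349-122427064 had a log2 fold change of 0.62 under BPQD (p = 7.94e-49), and the peak at chr3:122426349-122427034 had 0.269 under TiO2 (p = 5.01e-11) in the authors' deposited tables. Each table lists a near-duplicate of that region, with 0.619 under BPQD and 0.277 under TiO2 in the authors' deposited tables. A separate 3′ UTR peak of KPNA1, chr3:122424894-122425911, had 0.331 under BPQD (p = 8.13e-09) in the authors' deposited table. NUP50 had a 3′ UTR peak with 0.234 under BPQD (chr22:45184154-45185741, p = 7.94e-11) and 0.31 under TiO2 (chr22:45184424-45185741, p = 1.26e-18) in the authors' deposited tables. NUP160 had one with 0.089 under BPQD (chr11:47778807-47783089, p = 0.00204) and 0.2 under TiO2 (chr11:47778837-47783089, p = 3.98e-11) in the authors' deposited tables. The XPO6 peak on exon 8 of 25, chr16:28155903-28156510, was lower under BPQD, with -0.236 (p = 4.68e-10) in the authors' deposited table.

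Peaks of other members with values above were fewer. In the authors' deposited table for BPQD, NUP214 had 0.129 on exon 29 of 36 (p = 6.76e-05) and 0.248 in the 3′ UTR (p = 0.0151), IPO13 had 0.257 in the 5′ UTR (p = 0.000603), IPO7 had -0.0846 in the 3′ UTR (p = 0.00501) and TNPO2 had -0.251 in the 3′ UTR (p = 0.0347). NUP188 had -0.284 under BPQD (p = 0.00513) and -0.258 under TiO2 (p = 0.00603) in peaks annotated to its 3′ UTR in the authors' deposited tables. Most of each peak lies past the end of NUP188 at chr9:129007096, as both run to chr9:129008261. NUP188 overlaps the expressed gene SH3GLB2, and which transcript these peaks come from was not tested. In the authors' deposited table for TiO2, NXF1 had -0.292 (p = 0.000214), NUP98 had 0.271 (p = 0.0224) and POM121 had 0.212 (p = 0.0123), all in the 3′ UTR, while KPNB1 had 0.969 (p = 0.0263) and TNPO2 had 0.292 (p = 0.0363) in the 5′ UTR. The NUP98, POM121 and KPNB1 peaks did not pass the authors' FDR under 0.05. Nor did the NUP214 3′ UTR peak or the TNPO2 peak of either material. NXF1 RNA was -0.17 under TiO2 on the log2 scale beside its peak. Chosen after its values were seen, the TNPO3 3′ UTR peak at chr7:128954180-128954510 was lower in both of the authors' deposited tables, with -0.235 under BPQD (p = 0.000589) and -0.401 under TiO2 (p = 4.79e-09). The NUP153 peaks on exon 16, the wider RANBP2 peak and the IPO13, NUP160 and IPO7 peaks span several kilobases. Those regions can include introns.

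**Figure D4:**
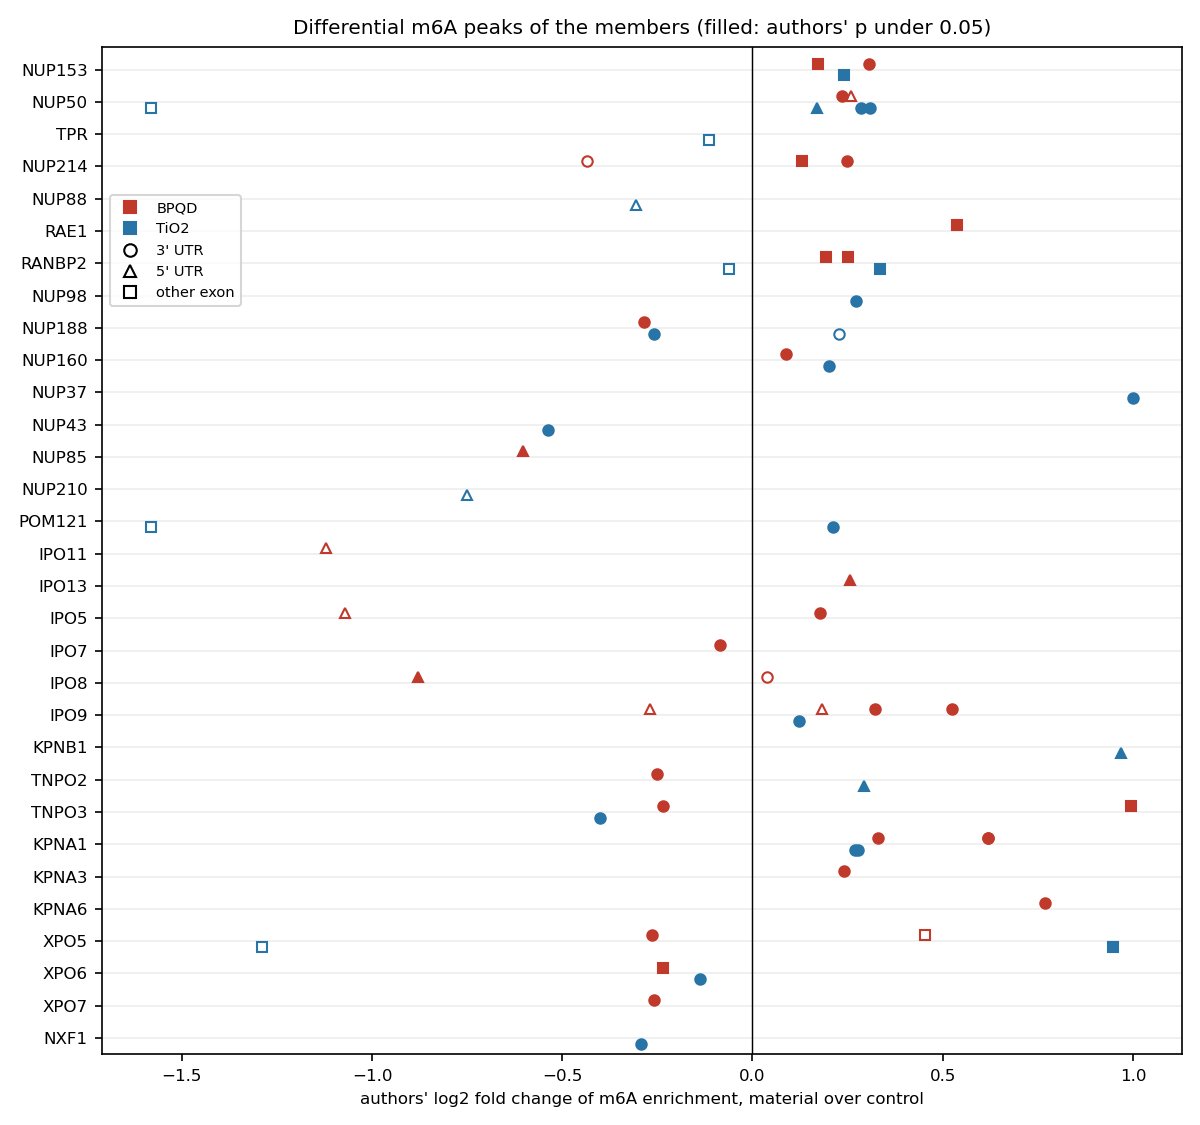
Log2 fold change (x axis) of each member peak in the authors' deposited tables, by gene (rows), with BPQD in red above TiO2 in blue. The fold change is read as m6A enrichment, material over control. Circles are 3′ UTR, triangles 5′ UTR and squares other exons, and filled points passed the authors' p under 0.05. Filled points lie mostly to the right of 0 in both of the authors' deposited tables, where all peaks lean the same way. Over all peaks 37.7% were higher and 27.1% lower for BPQD, and 40.3% and 23.8% for TiO2, at the authors' p under 0.05. KPNA1 holds the BPQD peak with the smallest p among member peaks, at 0.62.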

How the data were processed

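Values in FPKM for 36576 genes in 9 input libraries were made by the authors and deposited as a table, with no read counts. The submitters' processing notes name HISAT2, with no version, and StringTie 1.3.0, with no roles, and give the build as mm10. The gene IDs are human, and of 24557 symbols matched to RefSeq on GRCh38 100% lie on the same chromosome and 94.6% start within 10000 bases, so coordinates are read as GRCh38. For each material the authors deposited m6A peaks set against control, and per the file headers every peak has a log2 fold change, a p-value and a log10 FDR, here a score. Neither the peak caller nor any pooling is given in the sources used here. A total of 3 repeated entries were dropped from the TiO2 table. The peak tables also hold 12 per-sample FPKM columns, which were left unused.

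Libraries were grouped by title. Genes averaging at least 1 FPKM (12224) were tested as log2(FPKM + 1) by limma 3.58.1 under R 4.3.3, with group means fitted to all 9 libraries, a trend in the variance and two-sided Benjamini-Hochberg adjusted p over all genes tested. Fold changes on this scale understate changes of low genes. Steps were tested on simulated data. Members and gene lists were chosen with earlier results of these data known. Values per library are given for up to 4 called members with the largest rise and up to 4 with the largest fall in each comparison and for 11 members picked for their role, and of lists up to 4 called genes. Peaks named are the 6 with the smallest p per table and those at p under 0.05 in genes so chosen. The values per library of NUP188, NUP50, IPO4, XPO4 and NUP62, the peaks of NUP188 and TNPO3 and the TiO2 counterpart of a RANBP2 peak (p = 0.0631 in the authors' deposited table) were added after they were seen. Deviations from group means correlated by -0.083 to 0.073 between libraries with the same replicate number and -0.079 to 0.084 otherwise, so numbers were not used as pairs. Alternatives were 18 other fits, including pseudocount, filter, scaling and leaving out each library, and other peak thresholds. Tables and figures used Python 3.11.15, pandas 2.3.3, numpy 2.4.6 and matplotlib 3.10.9. The only sequence used here was that of the promoters, and no peak or protein sequence was read.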

Additional observations from a re-analysis of the deposited data

Results flagged for a closer look

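NUP188 and POM121 were called higher under BPQD and lower under TiO2 than in control cells, and the difference between the materials was itself called by limma. For NUP188, the inner ring scaffold protein, BPQD against TiO2 was 0.19 ± 0.02 (adjusted p = 0.000302), with 39.6 ± 0.300 FPKM under BPQD, 34.7 ± 0.517 under TiO2 and 36.8 ± 0.412 in control cells (SD, n = 3), and its calls held in all 18 alternative fits. For POM121, the membrane anchor, it was 0.40 ± 0.06 (adjusted p = 0.00125), with 9.22 ± 0.386 FPKM under BPQD, 6.75 ± 0.622 under TiO2 and 7.96 ± 0.101 in control cells, and that difference held in all 18 alternative fits while each call against control was lost in 7. Groups of 3 libraries were not tested for outlying samples.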

How the results depend on the processing

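Counts of members moved little between settings. With 1 library left out, members called under BPQD against control were 30 to 34 higher and 2 to 4 lower, under TiO2 against control 18 to 20 and 3 to 5, and under BPQD against TiO2 24 to 26 and 1 to 1. The median log2 fold changes were then 0.24 to 0.28, 0.060 to 0.083 and 0.14 to 0.16, and all genes called 4690 to 5276, 3754 to 4503 and 3923 to 4456. TiO2 against control kept 3 lower members, against 5, without TiO2 library 1, TiO2 library 2 or control library 3. With a mean of at least 5 FPKM, all genes called were 3495, against 5384, under BPQD against control and 2832, against 4596, under BPQD against TiO2, since 6504 genes were tested. The 1 member lower under BPQD than under TiO2, IPO13, is under that filter, which left 0. With no filter, TiO2 against control had 3 lower members. The members' median under BPQD against control was 0.29 with median centring, 0.28 with a pseudocount of 0.1, 0.28 with quantile normalization and 0.33 in TPM. Under TiO2 against control it was 0.10 in TPM, and under BPQD against TiO2 0.16 with centring, 0.17 with quantile normalization and 0.19 in TPM. A fit with the replicate number as a block gave 30 higher and 3 lower, 18 and 4, and 24 and 2 in the same order. The main fit did not use the numbers as pairs, and whether they pair the libraries is not known. TiO2 peaks of members that were higher numbered 15, and 7 at the authors' FDR under 0.05, 8 at p under 0.01 and 9 among peaks of at most 2000 bases. The causes of these shifts were not tested. Of 1452 values for the 27 members with values per library, 1388 kept their side of the threshold, 53 lost a call, 11 gained one and 0 called values reversed. Of those 1388, 17 uncalled values changed sign. Depth is unknown, so small differences of low genes such as XPO4 were limited by library spread.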
